A study of Homo sapiens with 10 samples.

Results

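KIF5C and the other subunits of the motor kinesin-1 were followed in BEAS2B cells, a human bronchial epithelial line, after transfection of microRNAs or a microRNA inhibitor. The 6 members were the heavy chain genes KIF5A, KIF5B and KIF5C and the light chain genes KLC1, KLC2 and KLC4, out of 52402 gene symbols counted. KIF5C was chosen by its measured rise with the miR-3124-5p mimic, one of the largest of all genes, and the others were taken because their products belong to the same motor. KLC3, the remaining light chain gene, is described beside them. The mRNA-sequencing libraries fell into 5 groups of 2, all made from the wild-type line with a lipid reagent (Lipofectamine) and collected 48 h after transfection. The groups were miRcontrol (a scrambled sequence), miR3124_mimic, miR200b_mimic and miR92b_inhibitor, each at 50 nM, and a 3-miRNA mixed group that received these 3 together in amounts of each that the sources used here do not give. Nothing in the labels says that the 2 libraries of a group came from separate transfections, so the p-values measure the spread between these libraries, which may be technical.

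Kinesin-1 walks along microtubules towards their plus ends, away from the cell centre, and carries vesicles, organelles, mRNAs and protein complexes. A pair of heavy chains holds the motor domains, and a pair of light chains binds many of the cargoes and keeps the idle motor folded. KIF5B is the heavy chain of most tissues, whereas KIF5A and KIF5C are known as heavy chains of neurons. A mature microRNA is loaded into Argonaute and pairs mainly through its seed, bases 2 to 8, with words in the 3′UTR of mRNAs, whose stability and translation it lowers. A mimic adds such a microRNA, and an inhibitor binds one.

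The mature sequences of the microRNAs in the study are shown because their seeds set the words to look for in the members. They were taken from RefSeq (GRCh38.p14), and the seed is in capitals. All are on chromosome 1, on the + strand. The arm of miR-92b against which the inhibitor was directed is not given in the labels, so both arms are shown. The 4 seeds differ from each other.

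hsa-miR-3124-5p (chr1:248826383-248826403): uUCGCGGGcgaaggcaaaguc

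hsa-miR-200b-3p (chr1:1167160-1167181): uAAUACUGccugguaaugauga

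hsa-miR-92b-5p (chr1:155195196-155195217): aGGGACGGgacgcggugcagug

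hsa-miR-92b-3p (chr1:155195237-155195258): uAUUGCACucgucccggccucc

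The words that pair with these seeds were searched for in the longest 3′UTR of each member, on the strand of the transcript only (GENCODE v29, GRCh38). The word for miR-3124-5p, CCCGCGA, was in 0.628% of the 19113 3′UTRs examined and in that of no member. The word for miR-200b-3p, CAGTATT, was in 16.0% of them and also in that of no member. The word for miR-92b-3p, GTGCAAT, was in 11.1% of them, and it was found once in KIF5B and once in KIF5C. The word for miR-92b-5p, CCGTCCC, was in 3.82%, and it was found once in KLC1, at base 4659 of a 3′UTR of 13050 bases. The 3′UTRs searched in the other members were shorter, with 427 to 3689 bases. The counts were the same when every coding transcript of a member was searched. A match is only a description of the sequence, and the absence of a word says no more than that these letters are not in these 3′UTRs. The matches are shown with their neighbouring bases, with the word in capitals.

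KIF5C (chr2:149025471-149025499, + strand, 3′UTR): aagccacatatGTGCAATtttcaggtttt

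KIF5B (chr10:32011312-32011340, - strand, 3′UTR): acacaactagaGTGCAATtttggcatctt

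KLC1 (chr14:103705847-103705875, + strand, 3′UTR): gagggcggctcCCGTCCCgttcctgagca

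The libraries held between 13587666 and 18503890 counted reads. Values are given as normalized CPM, the read counts scaled to the size of each library, which are comparable between libraries for a gene, and between genes only after division by length. All 6 members and KLC3 passed the filter on low counts and were tested with 14884 genes in all by the quasi-likelihood test of edgeR (Benjamini-Hochberg adjustment over those genes), which gave every adjusted p below unless another tool is named. Of the epithelial markers, KRT7, KRT8 and KRT18 had at least 10684 counts in each library, while KRT5 had at most 9 and TP63 at most 2. KRT19, EPCAM and CDH1 were also low in some libraries, down to 9, 2 and 1 counts. The mesenchymal marker VIM had at least 12112 counts. The label of an epithelial line was thus borne by KRT7, KRT8 and KRT18, and several other epithelial markers were near 0.

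KIF5C (chromosome 2, 148875250 to 149026759, + strand) was the least abundant heavy chain gene and the one that differed most between groups. Its read counts were 6 and 5 in the miRcontrol libraries, 75 and 97 with miR3124_mimic, 1 and 3 with miR200b_mimic, 15 and 16 with miR92b_inhibitor, and 18 and 31 where the 3 were mixed. In normalized values, it stood at 0.343 and 0.298 CPM in miRcontrol and at 5.12 and 5.49 CPM with miR3124_mimic. The level was 0.0748 and 0.173 CPM with miR200b_mimic, 0.875 and 0.876 CPM with miR92b_inhibitor, and 0.995 and 1.67 CPM in the mixed group. By group mean, the order from high to low was miR3124_mimic, 3-miRNA mixed, miR92b_inhibitor, miRcontrol and miR200b_mimic. This order describes 2 libraries a group, and not every step in it was called. Neither the mixed group against miR92b_inhibitor (adjusted p = 0.209) nor miR200b_mimic against miRcontrol (adjusted p = 0.218) differed significantly.

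The value by which KIF5C was chosen is its difference between miR3124_mimic and miRcontrol, a log2 fold change of 4.02 ± 0.377 (SE), or 16.2-fold, and no test is given for it. It ranked 4 of 3570 genes that rose in that comparison at a mean of at least 1 CPM. The next above was SLCO2A1, a prostaglandin transporter, at 5.06, and the next below was TNFSF15, a cytokine, at 3.85. The rank restates the value used for the choice. KIF5C, at 1.59 CPM on average, also passed the floor through miR3124_mimic, with a mean of 5.30 CPM there and 0.124 to 1.33 CPM elsewhere. Since the control libraries held 11 KIF5C reads in all against 172 with the mimic, counting error alone gave an interval of 9.03 to 33.8 for the ratio (95%, exact).

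In the other groups, which did not enter the choice of KIF5C except through the shared control libraries, the gene was called in 2 of 3. In the mixed group it rose by a log2 fold change of 2.03 ± 0.467 (adjusted p = 0.000344) over miRcontrol, and the difference ranged from 1.61 to 2.35 over the alternatives, with a highest adjusted p of 0.0264. With miR92b_inhibitor the difference was 1.43 ± 0.509 (adjusted p = 0.0244). That call was lost by DESeq2 (adjusted p = 0.0774) and without any 1 of the 4 libraries compared. The adjusted p was 0.0824 without miRcontrol replicate 1 and 0.121 without miRcontrol replicate 2, and it was 0.0729 and 0.0831 without miR92b_inhibitor replicate 1 and replicate 2. With miR200b_mimic KIF5C stood at 4 reads in all against 11, a ratio of 0.405 with a counting interval of 0.0940 to 1.37, and the difference of -1.26 ± 0.798 was not significant (adjusted p = 0.218).

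Neither side of the comparisons of the mixed group with miR200b_mimic and miR92b_inhibitor held libraries by which KIF5C was chosen. All 10 libraries were in the one fit, however, so the estimate of the spread behind these tests drew on the choosing libraries too. KIF5C was higher in the mixed group than with miR200b_mimic by a log2 fold change of 3.29 ± 0.586 (adjusted p = 9.96e-06). The ratio of reads was 10.3, with a counting interval of 3.77 to 39.2. Against miR92b_inhibitor the mixed group was 0.60 ± 0.375 higher, which was not significant (adjusted p = 0.209), and the counting interval of the ratio ran from 0.954 to 2.48. The miR3124_mimic libraries held 3.98 times as much KIF5C as the mixed group, with a counting interval of 2.88 to 5.59, and no test is given since the mimic libraries entered the choice. The mixed libraries differed among themselves, so this log2 difference, -1.99 for mixed against mimic, was -1.66 without mixed replicate 1 and -2.41 without mixed replicate 2.

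**Figure D1:**
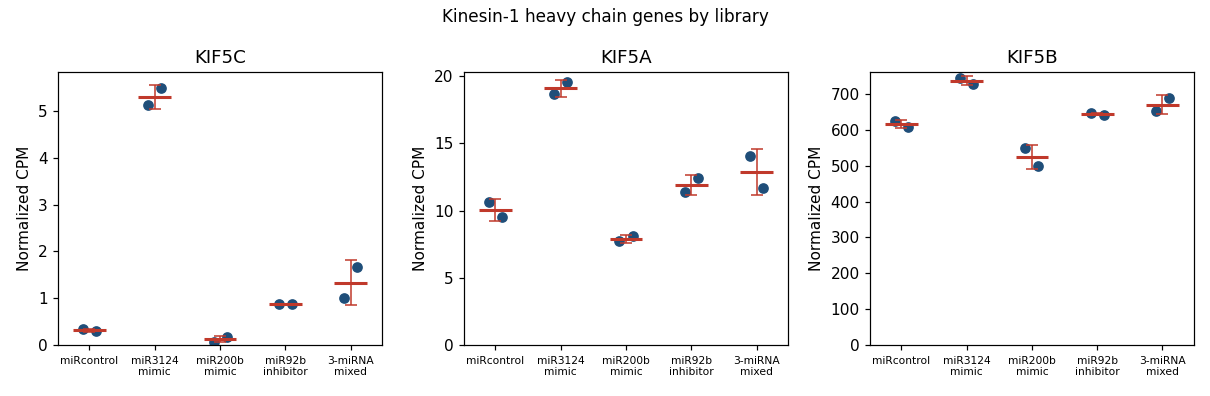
Normalized CPM of KIF5C, KIF5A and KIF5B (vertical axes, each from 0) in the 2 libraries of each group (points), with the group mean and SD (bars). In all 3 genes the miR3124_mimic libraries were the highest and the miR200b_mimic libraries the lowest.

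KIF5A (chromosome 12, 57549998 to 57586632, + strand) encodes the other heavy chain known from neurons, and its mutations cause hereditary spastic paraplegia and amyotrophic lateral sclerosis. Its level was 10.6 and 9.49 CPM in miRcontrol, 18.6 and 19.5 CPM with miR3124_mimic, 7.70 and 8.11 CPM with miR200b_mimic, 11.4 and 12.4 CPM with miR92b_inhibitor, and 14.0 and 11.7 CPM in the mixed group. The order of the group means was that of KIF5C, and the miR92b_inhibitor and mixed libraries overlapped. Its values did not enter the choice of the members. KIF5A rose with miR3124_mimic by a log2 fold change of 0.92 ± 0.115 (adjusted p = 2.45e-09), and this held in all alternatives, with a highest adjusted p of 2.44e-06.

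In the remaining groups KIF5A differed less from miRcontrol. It was lower with miR200b_mimic (-0.35 ± 0.135, adjusted p = 0.0367). This call was lost by DESeq2 (adjusted p = 0.164), with no filter on low counts (0.0743), and without miRcontrol replicate 1 (0.254), miR200b_mimic replicate 1 (0.140) or miR200b_mimic replicate 2 (0.0916). It was higher in the mixed group (0.35 ± 0.120, adjusted p = 0.0151), a call lost by DESeq2 (adjusted p = 0.113), without miRcontrol replicate 2 (0.158) and without mixed replicate 1 (0.269). With miR92b_inhibitor the difference of 0.24 ± 0.122 was not significant (adjusted p = 0.123). Between the transfected groups, the mixed group was lower than miR3124_mimic by -0.57 ± 0.109 (adjusted p = 1.87e-05) and higher than miR200b_mimic by 0.70 ± 0.128 (adjusted p = 1.77e-05), and it did not differ significantly from miR92b_inhibitor (0.11 ± 0.116, adjusted p = 0.492).

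KIF5B (chromosome 10, 32009010 to 32056431, - strand), the heavy chain of most cell types, had 624 and 607 CPM in miRcontrol, 745 and 729 CPM with miR3124_mimic, 548 and 500 CPM with miR200b_mimic, 647 and 642 CPM with miR92b_inhibitor, and 652 and 688 CPM in the mixed group. The order of the means was again that of KIF5C, over a much smaller range. KIF5B rose with miR3124_mimic by 0.26 ± 0.0372 (adjusted p = 7.73e-08) and fell with miR200b_mimic by 0.23 ± 0.0378 (adjusted p = 1.33e-06), and both calls held in all alternatives. The rise in the mixed group (0.12 ± 0.0372, adjusted p = 0.00625) was lost without miRcontrol replicate 2 (adjusted p = 0.0952) or mixed replicate 2 (0.184). With miR92b_inhibitor the difference was 0.07 ± 0.0373 (adjusted p = 0.172). The mixed group was 0.36 ± 0.0376 above miR200b_mimic (adjusted p = 8.58e-11) and -0.14 ± 0.0370 below miR3124_mimic (adjusted p = 0.00184, and 0.102 without mixed replicate 1). Against miR92b_inhibitor it was 0.06 ± 0.0371 higher (adjusted p = 0.242).

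Divided by exon length, KIF5B made up between 97.1 and 98.7% of the heavy chain reads in the 10 libraries, and KIF5A between 1.30 and 2.44%. KIF5C contributed 0.0345 and 0.0309% in the miRcontrol libraries, 0.00859 and 0.0217% with miR200b_mimic, 0.0848 and 0.0853% with miR92b_inhibitor, 0.0953 and 0.152% in the mixed group, and 0.426 and 0.466% with miR3124_mimic. With the longest transcript as length in place of all exons, the KIF5C share with miR3124_mimic was 0.565 and 0.618%. These shares are a description without a test. None of the 7339 windows of 50 bases in the transcripts of KIF5C was found in KIF5A or KIF5B. The antisense gene annotated within KIF5C shares 0 exon bases with it.

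KLC2 (chromosome 11, 66257294 to 66267860, + strand) encodes the light chain with the highest level per kilobase of exon, 56.4 to 61.9% of light chain reads after that division. The ranking rests on the lengths used, an exon union of 5.48 kb for KLC2 and 19.3 kb for KLC1. Before division KLC2 had fewer CPM than KLC1, with means of 69.0 and 126 in miRcontrol. Its level was 73.7 and 64.3 CPM in miRcontrol, 62.8 and 63.9 CPM with miR3124_mimic, 91.1 and 95.2 CPM with miR200b_mimic, 64.7 and 66.2 CPM with miR92b_inhibitor, and 80.4 and 81.6 CPM in the mixed group. The miR200b_mimic libraries were the highest and the miR3124_mimic libraries the lowest, the opposite of the heavy chains. KLC2 rose with miR200b_mimic by 0.43 ± 0.0554 (adjusted p = 7.79e-09), which held in all alternatives. The rise in the mixed group, 0.23 ± 0.0552 (adjusted p = 0.000549), was lost without miRcontrol replicate 2 (0.14, adjusted p = 0.0988), the control library in which KLC2 was lower. With miR3124_mimic (-0.12 ± 0.0580, adjusted p = 0.0732) and miR92b_inhibitor (-0.08 ± 0.0570, adjusted p = 0.324) it was not called, but without miRcontrol replicate 2 it was (-0.22, adjusted p = 0.00557, and -0.17, adjusted p = 0.0473). The mixed group lay above miR3124_mimic (0.35 ± 0.0564, adjusted p = 7.51e-07) and miR92b_inhibitor (0.31 ± 0.0553, adjusted p = 1.13e-05), and below miR200b_mimic (-0.20 ± 0.0538, adjusted p = 0.00202), all of which held in every alternative.

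KLC1 (chromosome 14, 103561896 to 103714249, + strand), a light chain best known from neurons, differed little between groups. It had 124 and 128 CPM in miRcontrol, 124 and 120 CPM with miR3124_mimic, 138 and 140 CPM with miR200b_mimic, 113 CPM in both libraries with miR92b_inhibitor, and 130 and 125 CPM in the mixed group. It was higher with miR200b_mimic by 0.14 ± 0.0444 (adjusted p = 0.00807), which was lost without miRcontrol replicate 1 (adjusted p = 0.0920) or miR200b_mimic replicate 2 (0.0543). It was lower with miR92b_inhibitor by -0.16 ± 0.0447 (adjusted p = 0.00483), which was lost without miRcontrol replicate 2 (0.0741). Differences with miR3124_mimic (-0.05 ± 0.0448, adjusted p = 0.385) and in the mixed group (0.01 ± 0.0439, adjusted p = 0.859) were not significant. The mixed group was 0.17 ± 0.0443 above miR92b_inhibitor (adjusted p = 0.00198, and 0.0549 without mixed replicate 1). It was -0.13 ± 0.0440 below miR200b_mimic (adjusted p = 0.0157), a call lost by DESeq2 (0.0529) and without miR200b_mimic replicate 2 (0.0798) or mixed replicate 2 (0.160). Against miR3124_mimic the difference was 0.06 ± 0.0444 (adjusted p = 0.271). Of the KLC1 exon bases, 29.9% overlap XRCC3, a DNA repair gene on the opposite strand, and 10.3% overlap AL139300.1 on the same strand. The strand setting of the counting is not given in the sources used here, so reads of such neighbours cannot be told apart. XRCC3 itself changed by -0.21 with miR200b_mimic (adjusted p = 0.0694) and by 0.21 with miR92b_inhibitor (adjusted p = 0.0542).

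KLC4 (chromosome 6, 43040777 to 43075099, + strand), a less abundant light chain, was the light chain that rose with miR3124_mimic. It had 9.22 and 9.13 CPM in miRcontrol, 12.5 and 12.7 CPM with miR3124_mimic, 10.8 and 8.74 CPM with miR200b_mimic, 8.05 and 7.39 CPM with miR92b_inhibitor, and 9.46 and 8.77 CPM in the mixed group. The miR3124_mimic libraries were the highest. The rise with miR3124_mimic was 0.46 ± 0.128 (adjusted p = 0.00219), and the mixed group was -0.47 ± 0.126 below miR3124_mimic (adjusted p = 0.00170). Both held in all alternatives, with a highest adjusted p of 0.0460 and 0.0386. The other differences from miRcontrol, 0.08 ± 0.135 with miR200b_mimic, -0.25 ± 0.137 with miR92b_inhibitor and -0.01 ± 0.132 in the mixed group, were not significant (adjusted p = 0.683, 0.157 and 0.964). Nor were those of the mixed group from miR200b_mimic (-0.09 ± 0.133, adjusted p = 0.639) and miR92b_inhibitor (0.24 ± 0.135, adjusted p = 0.162). KLC4 shares 5.12% of its exon bases with CUL7 and 5.81% with MRPL2, both on the opposite strand. With miR3124_mimic these changed by -0.03 (adjusted p = 0.777) and -0.51 (adjusted p = 2.41e-06).

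KLC3 (chromosome 19, 45333434 to 45351520, + strand), a light chain known from the sperm tail, had the widest range of the light chain genes. It had 3.03 and 2.81 CPM in miRcontrol, 1.64 and 1.41 CPM with miR3124_mimic, 10.5 and 12.1 CPM with miR200b_mimic, 1.58 and 1.92 CPM with miR92b_inhibitor, and 3.98 and 4.90 CPM in the mixed group. It rose 3.88-fold with miR200b_mimic (log2 fold change 1.96 ± 0.186, adjusted p = 2.59e-12) and fell with miR3124_mimic (-0.94 ± 0.264, adjusted p = 0.00240), and both held in all alternatives. The fall with miR92b_inhibitor (-0.74 ± 0.250, adjusted p = 0.0178) was lost by DESeq2 (0.0801) and without miRcontrol replicate 1 (0.0933) or miR92b_inhibitor replicate 1 (0.127). The rise in the mixed group (0.60 ± 0.209, adjusted p = 0.0164) was lost by DESeq2 (0.108) and without miRcontrol replicate 2 (0.0900) or mixed replicate 2 (0.185). ERCC2, which overlaps 14.6% of its exon bases on the opposite strand, changed by -0.02 with miR200b_mimic (adjusted p = 0.716).

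**Figure D2:**
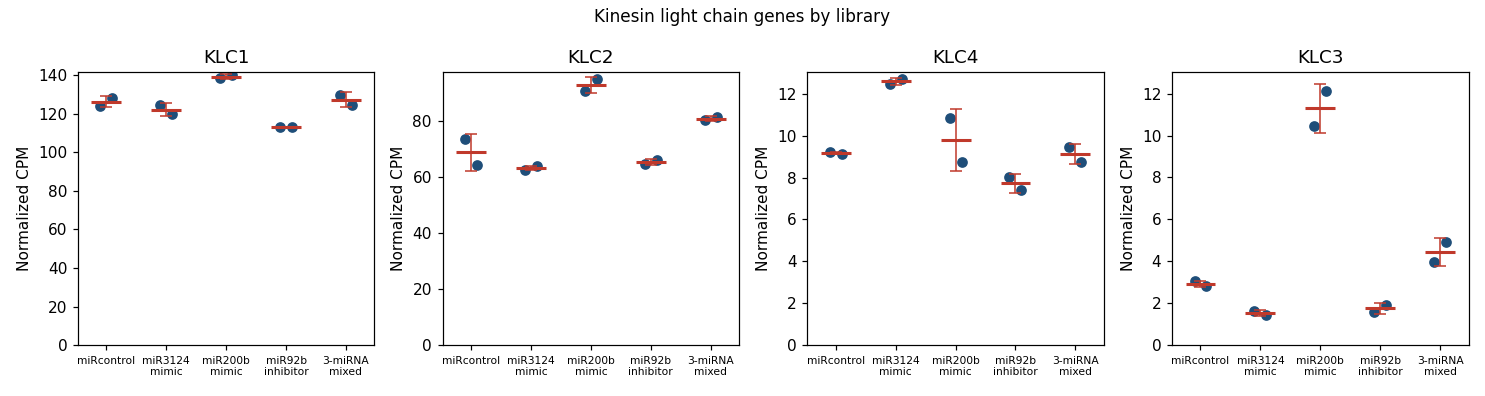
Normalized CPM of KLC1, KLC2, KLC4 and KLC3 (vertical axes, each from 0) in the 2 libraries of each group (points), with the group mean and SD (bars). KLC1, KLC2 and KLC3 were highest with miR200b_mimic, where KLC3 reached 10.5 and 12.1 CPM, and KLC4 was highest with miR3124_mimic.

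Among the 9 epithelial markers, the summed level was highest in the miR200b_mimic and mixed libraries, the groups with the highest means of KLC2 and KLC3, but it was also above miRcontrol with miR3124_mimic, where KLC3 fell and KLC2 was not called. The sum was 2227 to 2273 CPM in miRcontrol, 4202 to 4282 CPM with miR200b_mimic and 4091 to 4118 CPM in the mixed group, against 2785 to 2794 CPM with miR3124_mimic and 2102 to 2192 CPM with miR92b_inhibitor. All 7 that could be tested rose with miR200b_mimic, where 21.4% of all genes rose. Of these 7, 3 rose and 1 fell with miR3124_mimic, and 6 rose and 1 fell in the mixed group. With miR92b_inhibitor 0 rose and 2 fell. Among all genes 25.7, 21.5 and 17.5% rose with miR3124_mimic, the mixture and miR92b_inhibitor. KRT5 and TP63, too low to test, stayed at or below 9 and 2 counts. The 3 mesenchymal markers VIM, CDH2 and FN1, summed, went from between 7314 and 7334 CPM in miRcontrol to between 4383 and 4968 CPM in the miR3124_mimic, miR200b_mimic and mixed libraries, and stood at 6823 to 6970 CPM with miR92b_inhibitor. Singly, 1 of the 3 fell and 2 were not called with miR3124_mimic, and all 3 fell with miR200b_mimic and in the mixed group. With miR92b_inhibitor 2 fell and 1 rose. Among all genes 25.3, 19.1, 21.1 and 18.2% fell with miR3124_mimic, miR200b_mimic, the mixture and miR92b_inhibitor. The part of the epithelial and mesenchymal markers in the results on the light chains was not tested.

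**Figure D3:**
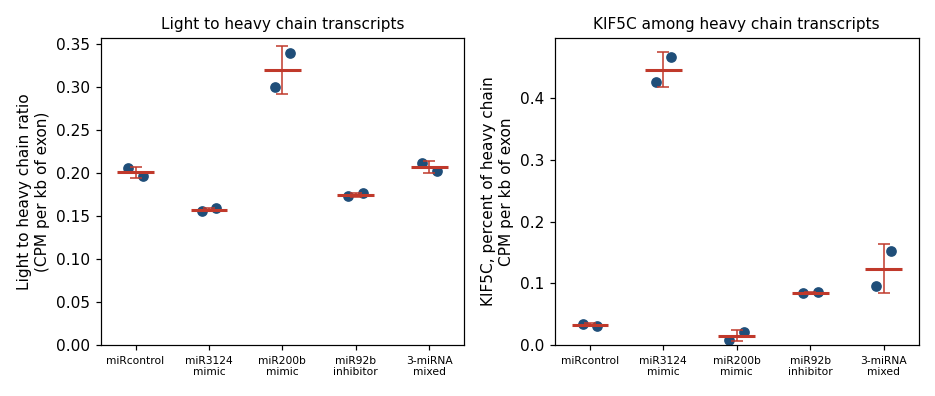
Left, ratio of light chain to heavy chain CPM per kilobase of exon, KLC3 included; right, KIF5C as a percentage of heavy chain CPM per kilobase of exon. Points are libraries and bars are group means with SD. The light to heavy chain ratio was highest with miR200b_mimic (0.300 and 0.339), and the KIF5C share was highest with miR3124_mimic (0.426 and 0.466%).

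Set against each other per kilobase of exon, light chain transcripts, KLC3 included, were 0.205 and 0.196 of the heavy chain level in the miRcontrol libraries. The ratio was 0.156 and 0.159 with miR3124_mimic, 0.300 and 0.339 with miR200b_mimic, 0.173 and 0.176 with miR92b_inhibitor, and 0.212 and 0.202 in the mixed group. The miR200b_mimic libraries were thus the highest and the miR3124_mimic libraries the lowest, and the mixed and miRcontrol libraries overlapped. No test is given for the ratio. Its value depends on the lengths used, and with the longest transcript as length it was 0.295 and 0.281 in miRcontrol.

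As a group, 3 of the 5 members tested with miR3124_mimic (KIF5A, KIF5B and KLC4) rose and 0 fell, where 51.0% of all genes were called, 25.7% upwards and 25.3% downwards. With miR200b_mimic 2 of 6 rose (KLC1 and KLC2) and 2 fell (KIF5A and KIF5B), against 40.6% called among all genes. With miR92b_inhibitor 1 rose (KIF5C) and 1 fell (KLC1), against 35.7%. In the mixed group 4 rose (KIF5A, KIF5B, KIF5C and KLC2) and 0 fell, against 42.7%, with 21.5% called upwards. Without miRcontrol replicate 2, that count was 1, KIF5C. The median log2 fold change of the tested members was 0.26 with miR3124_mimic and 0.18 in the mixed group, and it was -0.08 with miR200b_mimic and 0.00 (rounded) with miR92b_inhibitor, while the medians of all genes lay within 0.01 of 0. These comparisons share the miRcontrol libraries. KIF5C was chosen by its difference from these same control libraries. Its rises with miR92b_inhibitor and in the mixed group, and the counts and medians that include it, are thus not independent of that choice. Between the transfected groups, 4 of 5 members tested differed between the mixed group and miR3124_mimic, 1 upwards and 3 downwards (49.1% of all genes, 25.3% upwards and 23.8% downwards), 5 of 6 between the mixed group and miR200b_mimic, 3 upwards and 2 downwards (38.6%, 18.2% and 20.4%), and 2 of 6 between the mixed group and miR92b_inhibitor, both upwards (39.6%, 19.7% and 19.9%). With shares of this size among all genes, these counts of called members are no result particular to the family.

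**Figure D4:**
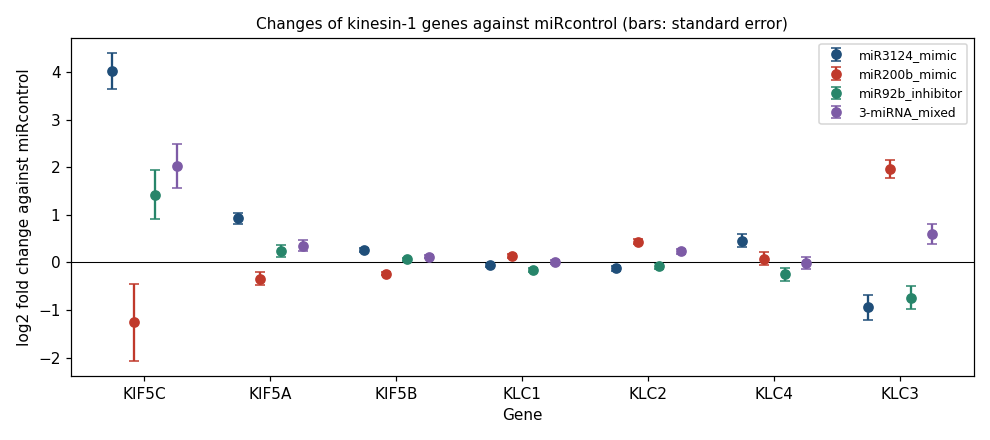
log2 fold change against miRcontrol (vertical axis) of the 6 members and KLC3 in each transfected group (colours), with standard errors (bars). KIF5C had the largest value with miR3124_mimic (4.02) and KLC3 with miR200b_mimic (1.96), while KIF5B and KLC1 stayed within 0.26 of 0.

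Over the 10 libraries, the genes whose log2 CPM was most like that of KIF5C among 12899 genes with at least 1 CPM were ENG (Pearson's r = 0.981), an endothelial co-receptor for TGF-beta ligands, JMY (0.978), an actin nucleator, DNAJC18 (0.976), a co-chaperone, PHC1 (0.972), a Polycomb subunit, and EPN2 (0.971), an endocytic adaptor. Within the family, KIF5A was the most similar (0.962, rank 22), followed by KIF5B (0.917, rank 211). KLC4 stood at 0.473, KLC1 at -0.546, KLC2 at -0.615 and KLC3 at -0.720. Spearman's rho of the 5 leading genes lay between 0.927 and 0.976, at ranks from 10 to 104, and the 5 genes with the highest rho shared 0 genes with them. The points are 10 libraries in 5 groups and share the same control libraries, so these values describe the order of the groups and carry no test. Among them are the miR3124_mimic and miRcontrol libraries by which KIF5C was chosen. KIF5C stood at 5.12 and 5.49 CPM with that mimic and at 1.67 CPM or less elsewhere. A high correlation, also within the family, thus partly restates a rise with miR3124_mimic.

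Because KIF5A and KIF5C are known as neuronal genes, 21 neuronal and neuroendocrine markers were examined. Among them, STMN2, GAP43, NEFM, ELAVL4, CHGA and INSM1 had 0 counts in all libraries, and 5 of the 21 could be tested. The summed level of the 21 was 318 to 327 CPM in miRcontrol and 330 to 334 CPM with miR3124_mimic, and most of it came from ENO2, UCHL1 and TUBB3. It was 283 to 294 CPM with miR200b_mimic, 272 to 273 CPM with miR92b_inhibitor and 307 to 317 CPM in the mixed group. With miR3124_mimic, ENO2 (0.32 ± 0.0485, adjusted p = 2.70e-07) and TUBB3 (0.16 ± 0.0626, adjusted p = 0.0275) rose, and UCHL1 fell by 0.23 ± 0.0422 (adjusted p = 1.30e-05). With miR92b_inhibitor ENO2 (-0.37 ± 0.0507, adjusted p = 6.52e-08), TUBB3 (-0.34 ± 0.0650, adjusted p = 4.12e-05) and UCHL1 (-0.14 ± 0.0416, adjusted p = 0.00694) fell. In the mixed group TUBB3 fell (-0.30 ± 0.0644, adjusted p = 0.000139), as did SYP, which had at most 11 counts in a library. ENO2 (-0.20, adjusted p = 0.00132) and UCHL1 (-0.17, adjusted p = 0.000939) fell with miR200b_mimic.

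The partners of kinesin-1 were described with a list of 30 cargo adaptors and regulators, of which 29 were tested. With miR3124_mimic 10 rose and 7 fell (median 0.01), with miR200b_mimic 8 and 7 (median -0.02), with miR92b_inhibitor 4 and 6 (median -0.02), and in the mixed group 4 and 9 (median -0.06). Among all genes 51.0, 40.6, 35.7 and 42.7% were called in these comparisons, so the number of adaptors called was near the background. In this list and those below, only the 3 largest called differences of each comparison are named. A gene may therefore also have differed in groups for which it is not named. The largest value was that of MAP7, which recruits kinesin-1 to microtubules. It had 6 and 7 counts in miRcontrol and 161 and 211 with miR200b_mimic, a log2 fold change of 4.97 ± 0.288 (adjusted p = 1.67e-19), and in the mixed group it rose by 3.12 ± 0.351 (adjusted p = 3.07e-10). The means of MAP7 were 0.381, 0.494 and 0.345 CPM in miRcontrol, miR3124_mimic and miR92b_inhibitor. It thus passed the floor of 1 CPM for naming only through miR200b_mimic (12.1 CPM) and the mixed group (3.36 CPM), where it was high. Its paralog MAP7D1 fell by 0.95 ± 0.0412 with miR3124_mimic (adjusted p = 2.06e-24). DISC1, a scaffold protein that binds kinesin-1, rose with miR3124_mimic (1.67 ± 0.185, adjusted p = 1.03e-10) and in the mixed group (0.74 ± 0.201, adjusted p = 0.00222) and fell with miR200b_mimic (-0.85 ± 0.257, adjusted p = 0.00647), the same directions as the means of the KIF5 genes in those groups.

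HAP1, which links KIF5 to receptor vesicles, rose with miR3124_mimic (1.51 ± 0.379, adjusted p = 0.000742), where the 2 libraries had 1.91 and 3.06 CPM. In the other groups its means were 0.602 to 0.952 CPM, so it passed the floor of 1 CPM for naming only through miR3124_mimic. FEZ2, an adaptor of the FEZ family, fell with miR200b_mimic (-1.13 ± 0.0693, adjusted p = 1.11e-18). With miR92b_inhibitor the largest differences were falls of SYNE2, a nuclear envelope protein that binds kinesin light chains (-0.54 ± 0.0398, adjusted p = 3.37e-15), of CLSTN3, a calsyntenin (-0.54 ± 0.0798, adjusted p = 4.82e-07), and of RHOT1, the mitochondrial GTPase Miro1 (-0.28 ± 0.0790, adjusted p = 0.00465). SYNE2 also fell in the mixed group (-0.76 ± 0.0402, adjusted p = 5.38e-21).

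Among the kinesins of other families that carry cargo, 14 of 17 were tested. With miR3124_mimic 4 rose and 3 fell, with miR200b_mimic 6 and 1, with miR92b_inhibitor 2 and 4, and in the mixed group 5 and 3, with medians of 0.03, 0.18, -0.02 and 0.08. Beside the 51.0, 40.6, 35.7 and 42.7% called among all genes, these counts are no result particular to the list. KIF3A, a motor subunit of kinesin-2, rose with miR3124_mimic (0.73 ± 0.0602, adjusted p = 1.45e-14), with miR200b_mimic (0.63 ± 0.0612, adjusted p = 5.22e-12) and in the mixed group (0.74 ± 0.0592, adjusted p = 1.41e-14). Its partner KIF3B rose with miR3124_mimic (0.43 ± 0.0427, adjusted p = 3.91e-12) and in the mixed group (0.28 ± 0.0426, adjusted p = 4.36e-07). With miR200b_mimic the mean of KIF3B was also higher, at 176 CPM against 144 CPM in miRcontrol. The kinesin-4 motor KIF21A rose with miR200b_mimic (1.01 ± 0.0674, adjusted p = 2.47e-17) and in the mixed group (0.49 ± 0.0691, adjusted p = 6.58e-08). Its paralog KIF21B rose with miR3124_mimic (1.01 ± 0.173, adjusted p = 2.62e-06) and fell with miR200b_mimic (-0.52 ± 0.210, adjusted p = 0.0434) and miR92b_inhibitor (-0.55 ± 0.204, adjusted p = 0.0317). KIFC2 (-0.71 ± 0.127, adjusted p = 1.24e-05) and KIF13B (-0.41 ± 0.0712, adjusted p = 1.00e-05) also fell with miR92b_inhibitor.

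The mitotic kinesins, which build the spindle and complete cell division, had another pattern. Of 13 tested, 11 fell with miR3124_mimic, 11 with miR200b_mimic, 9 with miR92b_inhibitor and 11 in the mixed group, where 25.3, 19.1, 18.2 and 21.1% of all genes fell, and 1, 1, 0 and 0 rose. Their median log2 fold changes were -0.57, -0.42, -0.17 and -0.59. CENPE, the kinetochore motor, fell with miR3124_mimic (-1.19 ± 0.0444, adjusted p = 4.59e-27), together with KIF23 (-0.78 ± 0.0426, adjusted p = 7.98e-21) of the central spindle. KIF11, which separates the spindle poles, fell with miR200b_mimic (-0.93 ± 0.0445, adjusted p = 1.18e-22) and in the mixed group (-0.86 ± 0.0434, adjusted p = 7.87e-22). KIF20A, a motor of cytokinesis, fell with miR200b_mimic (-0.77), with miR92b_inhibitor (-0.62) and in the mixed group (-1.13), with a highest adjusted p of 4.64e-16. The mean of KIF11 was also below that of miRcontrol (295 CPM) with miR3124_mimic (187 CPM) and miR92b_inhibitor (230 CPM). That of KIF20A was also lower with miR3124_mimic, at 154 CPM against 230 CPM in miRcontrol. KIF14, also of cytokinesis, was among the 3 named in every group, with -0.82, -0.69, -0.37 and -1.06 in the order above and a highest adjusted p of 2.43e-08. The heavy chain genes thus differed in sign between groups, while the mitotic motors that were called fell in each, with 1 exception each for miR3124_mimic and miR200b_mimic.

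For the opposite motor, cytoplasmic dynein with its activator dynactin, 25 of 28 genes were tested. With miR3124_mimic 8 rose and 2 fell, with miR200b_mimic 9 and 4, with miR92b_inhibitor 3 and 5, and in the mixed group 6 and 5, with medians between -0.03 and 0.09. Against 51.0, 40.6, 35.7 and 42.7% of all genes, these counts are likewise no result particular to the list. The dynein adaptor HOOK2 rose with miR200b_mimic (1.18 ± 0.112, adjusted p = 2.62e-12) and in the mixed group (1.04 ± 0.111, adjusted p = 7.22e-11). With miR3124_mimic the adaptor BICD2 fell (-0.83 ± 0.0525, adjusted p = 1.82e-18) while its paralog BICD1 rose (0.58 ± 0.0685, adjusted p = 7.44e-10). ACTR1A, the actin-related protein of the dynactin filament, fell with miR3124_mimic (-0.63 ± 0.0433, adjusted p = 3.22e-17) and in the mixed group (-0.37 ± 0.0419, adjusted p = 4.71e-10). Its paralog ACTR1B fell with miR92b_inhibitor (-0.75 ± 0.0848, adjusted p = 7.80e-10) and in the mixed group (-0.40 ± 0.0810, adjusted p = 5.33e-05).

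**Figure D5:**
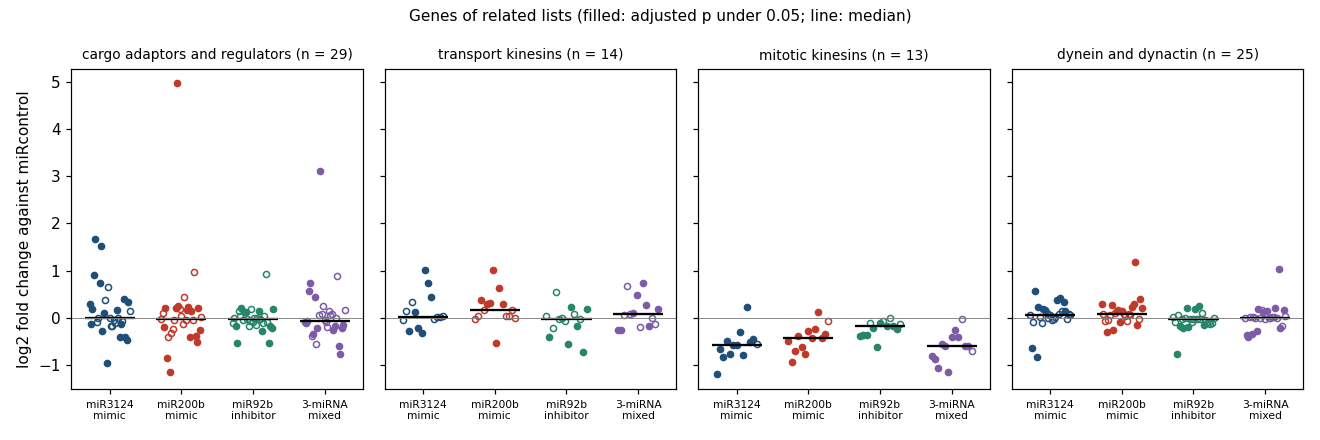
log2 fold change against miRcontrol (vertical axis) of the tested genes of 4 lists in each transfected group; points are genes, filled where the adjusted p was under 0.05, and lines are medians. The mitotic kinesins lay mostly below 0, with medians of -0.57, -0.42, -0.17 and -0.59, and MAP7 was the highest point among the cargo adaptors.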

How the data were processed

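Libraries of poly(A) RNA from BEAS2B cells were prepared with a directional kit (NEBNext Ultra II) and sequenced as read pairs. The authors trimmed the reads with FASTX_Trimmer and BBMap and mapped them with TopHat, and the submitters' processing notes name GRCh38. The deposited files hold whole read counts for each gene, not normalized. The counting tool, the annotation and the strand setting are not given in the sources used here. Of 58173 entries in a library, 5771 repeated a symbol, and counts of repeated symbols were summed (KIF5C was listed on a pair of entries, 1 of them at 0 in every library). Totals of 13587666 to 18503890 counts per library limit the precision of genes with few reads, and counting intervals cover counting error only.

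They were analysed in R 4.3.3 with edgeR 4.0.16, which builds on limma 3.58.1 (low counts removed by filterByExpr, RLE factors of 0.985 to 1.016, quasi-likelihood test, all 10 libraries in one fit, no covariates). Benjamini-Hochberg adjustment ran over 14884 genes, and a call needs an adjusted p under 0.05. The fit was tested on simulated data. The 2 libraries of a group differed by more than counting error (chi-square per degree of freedom of 1.75 to 2.63). Standard errors were derived from the fold change and the F statistic. No p is given for KIF5C wherever miR3124_mimic enters, because that group was used to choose it. Levels between genes were compared per kilobase of exon union (GENCODE v29). Likeness used log2 CPM with a prior count of 2.

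The members and lists were chosen with earlier results of these data known. Beside the 6 members and KLC3, the genes named were, in each list and comparison with miRcontrol, the 3 with the largest absolute log2 fold change among those with an adjusted p under 0.05 and a mean of at least 1 CPM, and the 5 most like KIF5C, its nearest tested neighbours and the markers. SLCO2A1, TNFSF15 and the genes overlapping the light chain genes were named for their position beside a member. Alternatives were TMM normalization, the DESeq2 1.42.0 Wald test, no filter on low counts, a replicate block, leaving out each library, the longest transcript as length, all coding transcripts, and Spearman's rho.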

Additional observations from a re-analysis of the deposited data

How the results depend on the processing

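Over 1032 alternative values, 964 kept their direction and call (or, for counts, stayed within 1.5 times), 60 lost or gained a call or moved, and 8 changed sign, all in differences that were called neither before nor after. These were KLC4 in the mixed group (0.0017 with TMM normalization, and -0.0638 to 0.0421 leaving out 1 library at a time) and, leaving out 1 library, KLC1 in the mixed group (-0.0177 to 0.0408), KLC2 with miR92b_inhibitor (-0.171 to 0.0272), KLC4 with miR200b_mimic (-0.0675 to 0.243), KLC4 for mixed against miR200b_mimic (-0.255 to 0.0557) and KIF5A for mixed against miR92b_inhibitor (-0.0294 to 0.234). By DESeq2, 1 kinesin-1 member and 5 cargo adaptors were called with miR92b_inhibitor, and KIF5C there (1.45) had an adjusted p of 0.0774. With the longest transcript as length, KIF5A made up 1.62, 2.53 and 1.83% of heavy chain reads in miRcontrol, miR3124_mimic and miR92b_inhibitor, KIF5B 98.3, 96.9 and 98.1%, and KIF5C 0.0434, 0.592 and 0.113%, with 0.164% in the mixed group, since the length itself differs. Leaving out 1 library at a time, the members called ranged from 2 to 4 with miR200b_mimic, from 1 to 2 with miR92b_inhibitor, from 1 to 4 in the mixed group, and from 1 to 2 for mixed against miR92b_inhibitor. The cargo adaptors called with miR92b_inhibitor ranged from 4 to 10, KIF5C with miR92b_inhibitor from 1.33 to 1.53, and KIF5C for mixed against miR3124_mimic from -2.41 to -1.66. A lone library left in a group was assumed to vary like the others, and the cause of these changes was not tested. Libraries with the same replicate number were not paired (correlations of -0.0359 to 0.0493 between same-numbered deviations over 12900 genes). With the replicate block, 3, 4, 2 and 4 members were called against miRcontrol in the order above. KIF5C rests on 4 to 172 reads per group, and the sum of 2 libraries limits its ratios.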

Other observations

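The genes on either side of KIF5C on chromosome 2 were examined for the same pattern. EPC2, a subunit of a histone acetyltransferase complex that lies 87.7 kb before KIF5C, rose with miR3124_mimic by a log2 fold change of 0.23 ± 0.0748 (adjusted p = 0.00962, Benjamini-Hochberg, quasi-likelihood test of edgeR), and it was not called in the other groups. LYPD6, 303 kb after KIF5C and below 1 CPM on average in miRcontrol, was at -1.37 ± 0.599 with miR3124_mimic (adjusted p = 0.0520) and fell in the mixed group (-1.87 ± 0.623, adjusted p = 0.0125), where KIF5C rose.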
